A study of Mus musculus with 12 samples.

Results

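The comparison set reprogrammed mammary epithelial cells of the mouse against adult lung epithelial cells, by the signal of microRNA (miRNA) probes on single-colour arrays. Members were chosen by sample title alone: the 3 arrays titled as reprogrammed mammary (replicates 1, 2 and 4) and the 3 titled as lung epithelial cells (replicates 1, 2 and 3), which are 6 of the 12 arrays of the series. The other 6 arrays carried adult mammary and reprogrammed lung cells, 3 of each, and served to estimate the spread and to show where a probe stood in related cells. Adult lung epithelium came from female mice of 10 weeks, digested with trypsin and collagenase for 45 minutes and enriched by 7 low-speed spins, against 30 minutes and 5 spins for mammary gland. For the reprogrammed cells the labels give no donor age, no donor tissue beyond the word mammary, no host and no time after transplantation, and no strain is named for any group. The protocol text describes embryonic lung epithelium separated from its mesenchyme and adult cells suspended in Matrigel for transplantation, and no cell sort. Whether replicates are separate animals, and whether animals were pooled, is not stated, so p-values reflect the spread between these samples alone, and that spread may be technical.

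MiRNAs are short RNAs that guide Argonaute proteins to partly complementary sites in messenger RNAs, which are then translated less or degraded. Pairing rests mostly on the seed near the 5′ end of the miRNA, so miRNAs with one seed are grouped as families, and many are transcribed together from clusters. MiRNA profiles differ strongly between tissues: the miR-200 family marks epithelium, miR-205 is abundant in basal mammary cells, miR-34b and its relatives mark multiciliated airway cells, and miR-126 and miR-223 mark endothelial and myeloid cells. The question here was how far reprogrammed cells with a mammary label differed from adult cells of the other organ.

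Probes carry only a serial number as their name, and 0 of the 2579 probes could be paired with a miRNA name in the tables used here. Hence 0 of the 80 miRNAs in 14 marker and family lists could be matched, no sequence is printed, and the lung or mammary identity of the cells was not checked against marker miRNAs. Results are given for probes, each of which may share its miRNA with other probes, and the identifiers of 4 probes are printed. In a sample of many cells, fewer cells of a type and less miRNA per cell cannot be told apart.

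The adult lung arrays were the brightest of the series and the reprogrammed mammary arrays the dimmest. Brightness, the 75th percentile of background-subtracted signal among 630 probes that every one of the 12 arrays detected, was 2295, 2205 and 2980 on adult lung replicates 1, 2 and 3. It was 844, 863 and 805 on reprogrammed mammary replicates 1, 2 and 4, so the groups did not overlap. The means were 2493 ± 424 and 837 ± 29.3 (SD, n = 3), a ratio of 2.98, with an exact two-sided permutation p of 0.1, the smallest that 3 arrays against 3 allow. A probe counted as detected on an array where most of its spots were well above background. Adult lung arrays detected 879, 851 and 1006 probes and reprogrammed mammary arrays 725, 773 and 700, a difference of the same exact p of 0.1. The number of arrays limits the precision of every value below. Scaling was meant to remove the brightness gap, and its part in the results was not tested beyond the other scalings reported at the end.

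**Figure D1:**
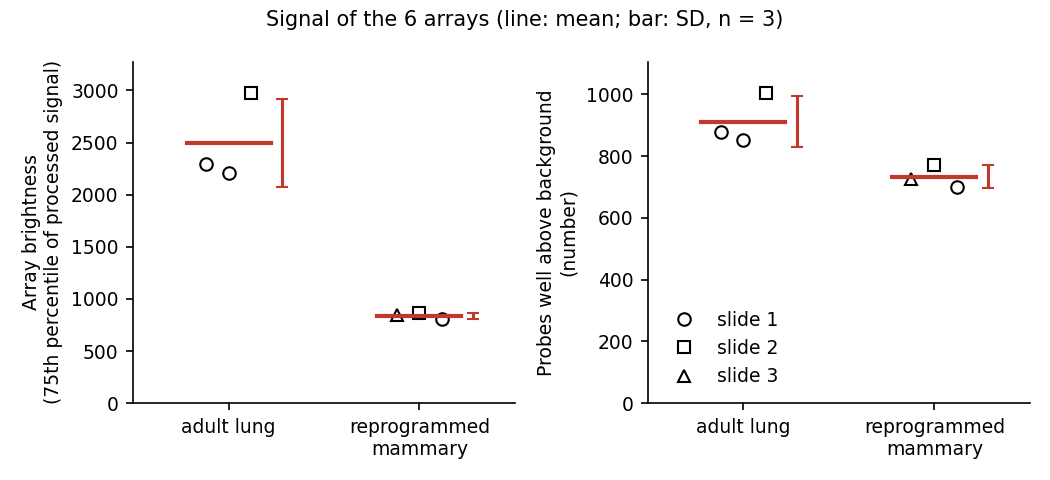
Brightness in signal units (left) and number of probes well above background (right) on each of the 6 arrays, with symbols for the slide, a line for the group mean and a bar for the SD (n = 3). Reprogrammed mammary arrays lay between 805 and 863 in brightness, all below the adult lung arrays at 2205 to 2980, and detected 700 to 773 probes against 851 to 1006.

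Across the 630 probes detected everywhere, log2 signal correlated at 0.979 to 0.993 between adult lung arrays and at 0.962 to 0.989 between reprogrammed mammary arrays. The 9 pairs of a lung with a reprogrammed mammary array correlated less, from 0.874 to 0.929 with a median of 0.922. Reprogrammed mammary arrays correlated at 0.925 to 0.975 (median 0.967) with adult mammary and at 0.899 to 0.981 (median 0.965) with reprogrammed lung arrays, and both ranges overlap that of the lung pairs. These are correlations over probes of whole arrays, which share base composition and array design, and they are given as a description. Reprogrammed mammary replicate 4 stood farthest from its group: it differed more than 2-fold from the mean of the other 2 arrays at 139 of the 947 tested probes, against 36 for replicate 1 and 78 for replicate 2. It also had the lowest correlations with lung (0.900, 0.874 and 0.886) and the most outlier spots (345). Among adult lung arrays this count was 37, 17 and 14 for replicates 1, 2 and 3, but replicate 3 differed more than 4-fold at 7 probes, by up to 5.35 on the log2 scale.

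A large part of the measured miRNA probes differed between the cells. Of 947 probes tested (those detected on at least 3 of the 12 arrays), 413 (43.6%) passed the threshold. Reprogrammed mammary signal was higher for 236 (24.9% of those tested) and lower for 177 (18.7%) (limma, Benjamini-Hochberg adjusted p under 0.05). Which direction held the majority turned with the scaling: the split was 161 higher against 212 lower after quantile normalization, 163 against 228 with the percentile over all probes, 115 against 257 with the percentile over the authors' probes, 14 against 531 with no scaling and 620 against 93 after normexp background correction. The median change was 1.24 among the higher probes (quartiles 0.87 and 1.64) and -1.18 among the lower ones (quartiles -1.63 and -0.85), against 0.15 over all tested probes, all on the log2 scale. Changes passed 2-fold for 156 higher (16.5% of those tested) and 112 lower probes (11.8%), 4-fold for 32 and 19, 8-fold for 10 and 7, and 16-fold for 4 and 3. The 3 arrays of each group did not overlap for 405 of the 413 probes, and for 579 (61.1%) of all 947. The counts rested in part on single arrays: without adult lung replicate 2 there were 272 calls, 146 higher and 126 lower, and without reprogrammed mammary replicate 4 there were 297, 167 higher and 130 lower. Without adult lung replicate 3 there were 287.

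**Figure D2:**
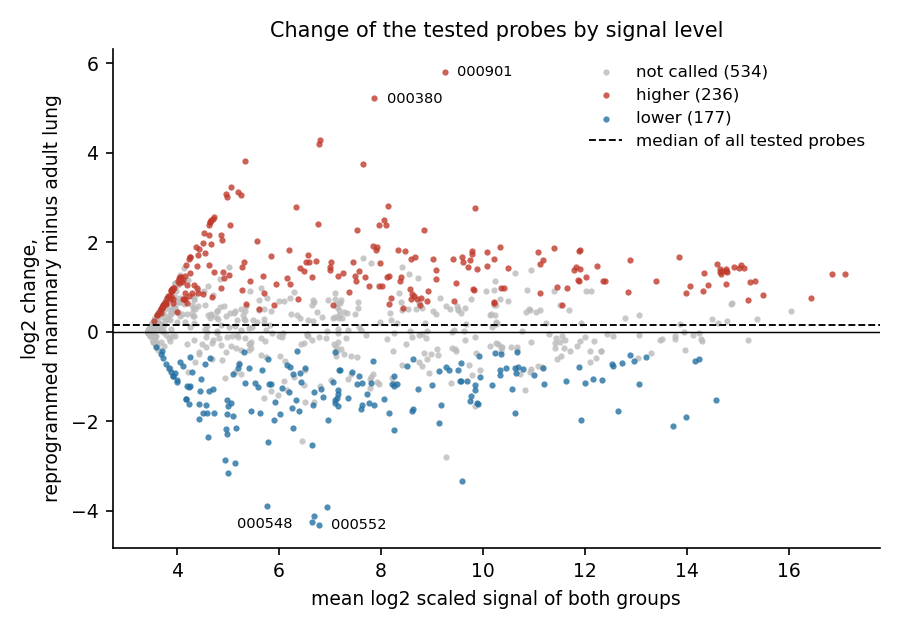
Log2 change (reprogrammed mammary minus adult lung) of the 947 tested probes against their mean log2 scaled signal in both groups, coloured by call, with the 4 printed probes marked by the end of their identifier. The 236 higher and 177 lower probes spread over the whole signal range, most changes past 4-fold lay below 8 on the signal axis, and the median of all tested probes (dashed) was 0.15.

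Among the probes detected on all 6 arrays, called and not overlapping (190 higher, 130 lower), UCSF034_000901 had the largest rise. Its log2 signal was 4.17, 4.96 and 9.92 on adult lung replicates 1, 2 and 3, and 12.20, 11.59 and 12.66 on reprogrammed mammary replicates 1, 2 and 4. All 3 reprogrammed arrays were above all 3 lung arrays, but lung replicate 3 lay far above the other 2. This amounts to a log2 change of 5.80 ± 1.30 (SE), or 55.8-fold (limma, adjusted p = 0.00637), higher on 3 of 3 arrays. Its size rested on single lung arrays: it was 4.71 without adult lung replicate 1 (limma, adjusted p = 0.0216), 5.11 without replicate 2 (adjusted p = 0.0298) and 7.58 without replicate 3 (adjusted p = 0.000259). On the array of lung replicate 3 all 7 spots of the probe were used and varied by an SD of 0.11, so its spots did not differ among themselves by more than those of the other arrays (0.03 to 0.20). In adult mammary cells this probe stood at 12.30, 13.08 and 12.55, and in reprogrammed lung cells at 9.84, 11.03 and 12.51.

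UCSF034_000380 rose nearly as far and with less spread. Its log2 signal was 5.04, 5.09 and 5.66 on the adult lung arrays and 10.24, 10.57 and 10.60 on the reprogrammed mammary arrays. The lung arrays thus lay within less than 1 unit of each other, as did the reprogrammed mammary arrays. The change was 5.21 ± 0.41 (SE), or 37.0-fold (limma, adjusted p = 2.8e-05), higher on 3 of 3 arrays. Adult mammary cells had 11.08, 10.36 and 9.83 and reprogrammed lung cells 10.92, 12.39 and 12.16. From adult to reprogrammed mammary the change was 0.05 ± 0.41 (SE, limma, adjusted p = 1), and from reprogrammed lung to reprogrammed mammary it was -1.35 ± 0.41 (SE, limma, adjusted p = 0.126), below the reprogrammed lung mean but not past the threshold.

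The deepest falls among these probes were those of UCSF034_000552 and UCSF034_000548, whose serial numbers lie close together. UCSF034_000552 had a log2 signal of 8.78, 9.10 and 8.93 on the adult lung arrays and 4.33, 4.33 and 5.19 on the reprogrammed mammary arrays. It fell by 4.32 ± 0.46 (SE), a 20.0-fold difference (limma, adjusted p = 0.000142), lower on 3 of 3 arrays. For UCSF034_000548 the lung arrays gave 8.54, 8.97 and 8.82 and the reprogrammed mammary arrays 4.55, 4.13 and 4.91. It fell by 4.25 ± 0.21 (SE), a 19.0-fold difference (limma, adjusted p = 1.0e-06). For both probes the lung arrays stood together near 9 and reprogrammed mammary replicate 4 was the highest of its group.

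Signal of both probes in reprogrammed mammary cells was close to the floor of 3.42 set for dim spots, so the size of the fall depends on how background is handled. With normexp background correction the changes were -2.06 and -1.99, both past the threshold (limma, adjusted p = 6.3e-06 for each). Signal was low in the other cells too: adult mammary arrays had 3.87, 4.55 and 4.06 for UCSF034_000552 and 4.03, 4.36 and 3.86 for UCSF034_000548. Reprogrammed lung arrays had 3.90, 5.39 and 5.89 for the former and 3.89, 3.93 and 4.09 for the latter. From adult to reprogrammed mammary UCSF034_000548 changed by 0.45 ± 0.21 (SE, limma, adjusted p = 0.219) and UCSF034_000552 by 0.46 ± 0.46 (SE, limma, adjusted p = 0.609). Neither difference passed the threshold, and at this signal small differences cannot be resolved.

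**Figure D3:**
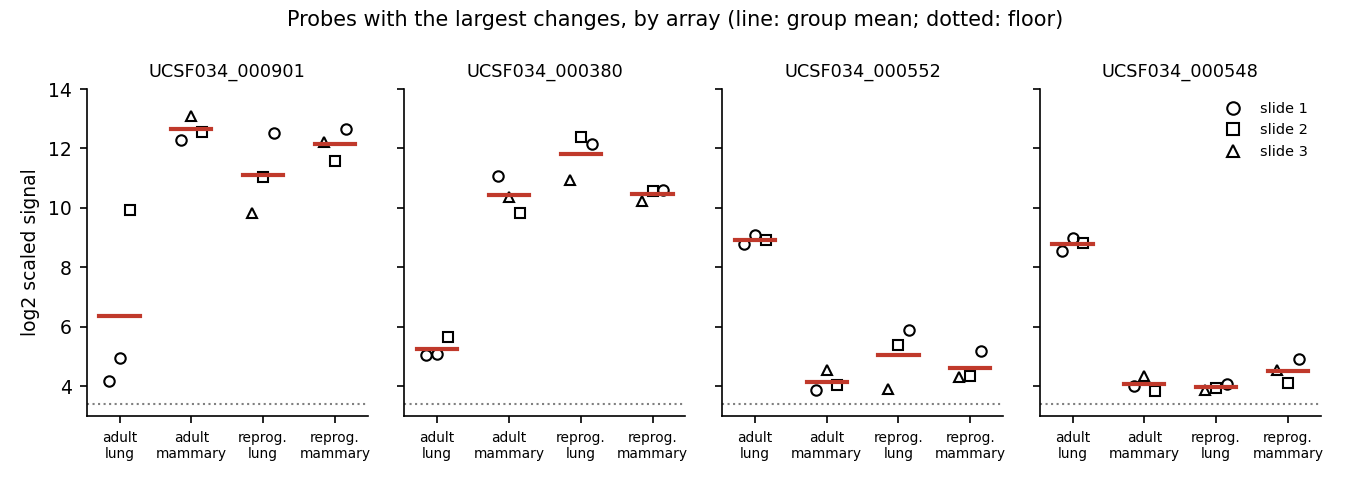
Log2 scaled signal of the 4 printed probes on each of the 12 arrays, by group, with symbols for the slide, a line for the group mean (n = 3) and a dotted line for the floor at 3.42. Reprogrammed mammary arrays lay between 10.24 and 12.66 for the 2 probes that rose and between 4.13 and 5.19 for the 2 that fell, and the single lung array at 9.92 for UCSF034_000901 is replicate 3.

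The authors' value table, a separate processing of the same arrays, gave the same directions for these 4 probes with smaller sizes. There limma fitted 4.69 for UCSF034_000901, 4.24 for UCSF034_000380, -3.27 for UCSF034_000552 and -3.22 for UCSF034_000548 (adjusted p = 0.00605, 2.8e-05, 1.6e-05 and 3.9e-07). Over the 754 tested probes in that table, its changes and those from the scanner files correlated at r = 0.966 and rho = 0.969 across probes, which come from the same arrays and are no independent check. On its values 299 probes (39.7%) passed, 131 higher and 168 lower, of which 240 were called in the same direction in the scanner files and 0 in the opposite one.

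Detection separated the groups mostly in one direction. Of all 2579 probes, 649 were detected on all 6 arrays and 1542 on none of them. Detection on every adult lung array and no reprogrammed mammary array was seen for 82 probes, and the reverse for 2. Most of the 82 were dim in lung, with a median log2 signal of 3.65, where the lowest detected probe of the reprogrammed mammary arrays had 3.82 to 4.14. For these probes only a bound can be given: the mean of the lung arrays against the reprogrammed mammary mean after raising each array's value, where lower, to the dimmest signal detected on that array. By that bound 25 of the 82 were higher in lung, 10 of them by at least 2-fold and 4 by at least 4-fold, and the highest bound was at least 13.4-fold. Of the 82, 26 were called lower and 1 higher, so 27 were called, against 413 (43.6%) of all 947 tested probes. The 82 were picked by detection on the arrays that made the calls, so the lean to lower largely follows from that choice. Adult lung arrays were also the brighter ones, and the part of brightness in these detection counts was not tested. The 2 probes detected on all reprogrammed mammary arrays but no lung array were both called, with a highest bound of at least 4.59-fold, and both were also detected on every adult mammary and reprogrammed lung array. Among all 236 higher calls, 5 were detected on 0 of the 3 reprogrammed mammary arrays, with changes up to 0.53 on the log2 scale, so their direction rests on signal that was not measured above background.

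The cells of the other groups stood nearer to reprogrammed mammary cells at most of the called probes. Median log2 signal of the 236 higher probes was 6.26 and 7.87 in adult lung and reprogrammed mammary cells, whose difference chose them. It was 7.65 for adult mammary and 7.74 for reprogrammed lung cells. These entered the choice only through the spread, the scaling, the floor and the detection filter. On single arrays this median was 6.17, 6.01 and 6.38 in adult lung and 7.60, 8.01 and 8.24 in reprogrammed mammary cells. The adult mammary mean was nearer to the reprogrammed mammary than to the lung mean for 141 of the 236 probes, and the reprogrammed lung mean for 182. Over the 534 probes not called these counts were 257 and 339. For the 177 lower probes the medians were 7.86 (adult lung), 6.85 (adult mammary), 6.72 (reprogrammed lung) and 6.31 (reprogrammed mammary). On single arrays their median was 7.62, 7.98 and 7.79 in adult lung and 6.31, 6.50 and 5.81 in reprogrammed mammary cells. The adult mammary mean was nearer to the reprogrammed mammary mean for 119 of the 177 and the reprogrammed lung mean for 142. Since the calls were made on the reprogrammed mammary and adult lung arrays themselves, the distance of both from the other groups is enlarged by that choice.

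The slides could be compared in part. Slide 1 held adult lung replicates 1 and 2 with reprogrammed mammary replicate 4, and slide 2 held adult lung replicate 3 with reprogrammed mammary replicate 2. Slide 3 had no adult lung array beside reprogrammed mammary replicate 1. The 236 higher probes had a median change of 1.38 within slide 1 and 1.22 within slide 2, and of 1.13 when replicate 1 was set against all lung arrays. For the 177 lower probes these were -1.31, -1.07 and -1.16. Over all tested probes the median was 0.08 within slide 1 and 0.20 within slide 2. UCSF034_000901 changed by 8.10 on slide 1 and 1.67 on slide 2, while UCSF034_000380 changed by 5.54 and 4.91, UCSF034_000552 by -3.75 and -4.60 and UCSF034_000548 by -3.85 and -4.69. With slide as a fixed block 397 probes passed, 222 higher and 175 lower. The direction of the called probes within slides is fixed by the choice of probes whose groups barely overlap. Their sizes come from the arrays that made the calls, so they are enlarged by that choice and are no independent check.

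Direction ran in blocks along the numbering of the probes. Among the 140 tested probes with serial numbers from 2000 to 2579, 52 were higher and 2 lower in reprogrammed mammary cells, with a median change of 0.51. Among the 157 tested probes from 118 to 309, each with 1 spot per array, 22 were higher and 58 lower, with a median of -0.44. The 113 probes from 310 to 499 gave 21 higher and 30 lower, the 260 from 500 to 999 gave 65 and 60, and the 151 from 1000 to 1499 gave 31 and 21. The 90 probes from 1500 to 1999 gave 31 higher and 5 lower, and the 36 from 1 to 117 gave 14 and 1. Over all 947 tested probes 43.6% were called, 24.9% higher and 18.7% lower. The share called was 41.7% from 1 to 117. From number 118 on it was 51%, 45.1%, 48.1%, 34.4%, 40% and 38.6% in the blocks in turn. The lean of some blocks turned with the scaling. From 2000 to 2579, scaling to the percentile of all probes left 37 higher and 3 lower calls. There were 31 and 2 after quantile normalization and 20 and 4 with the percentile over the authors' probes. From 118 to 309 these were 10 and 67, 14 and 61, and 7 and 70. From 1 to 117 they were 9 and 1, 8 and 1, and 8 and 1. From 1500 to 1999 they were 26 and 9, 24 and 10, and 17 and 11. From 310 to 499 they were 12 and 38, 15 and 35, and 7 and 42. The majority changed sides from 500 to 999 (49 and 77, 51 and 75, 41 and 87). It also did so from 1000 to 1499 (20 and 33, 18 and 28, 15 and 42). The blocks were drawn after the values were seen, they carry no test, and what sets them apart in the array design is not known from the tables used here.

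Signal differed between the blocks. From number 118 on, median lung log2 signal of the blocks in turn was 8.35, 7.52, 6.29, 5.04, 4.27 and 4.72. Their median change in the same order was -0.44, -0.16, 0.06, 0.16, 0.36 and 0.51. Across the medians of these blocks change thus mostly rose as signal fell, and the block from 1 to 117 was the exception. The tested probes sorted by signal itself did not show this. Their median change was 0.16 among the 316 dimmest, 0.04 among the 315 in the middle and 0.21 among the 316 brightest. The brightest block, from 1 to 117, leaned to higher, with a median log2 signal of 9.75 in lung and 9.81 in reprogrammed mammary cells. Probes from 2000 to 2579 leaned the same way and were dim, with a median log2 signal of 4.72 in lung and 5.12 in reprogrammed mammary cells, and 91 of the 140 were detected on all 6 arrays. Probes from 118 to 309, which leaned to lower, stood between them at 8.35 and 7.68, with 125 of the 157 detected on all 6. None of these 157 is in the authors' table, nor is any of the 36 tested probes from 1 to 117. Of all 947 tested probes 193 are not in that table, and they hold 95 of the 413 calls. Adult mammary cells had 8.49 and reprogrammed lung cells 8.43 at those 157 probes, so the reprogrammed mammary median was the lowest of the 4 groups. The parts of signal, of the floor and of spot number in the lean were not tested.

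**Figure D4:**
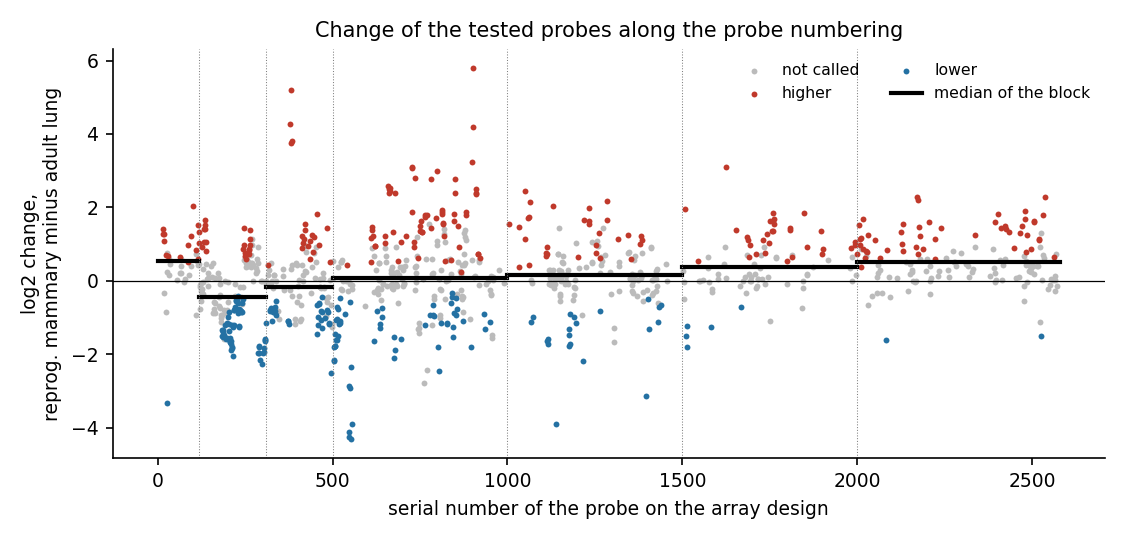
Log2 change (reprogrammed mammary minus adult lung) of the 947 tested probes against the serial number of the probe, coloured by call, with the median of each block of numbers as a black line. Medians ran from -0.44 for numbers 118 to 309 to 0.51 for numbers 2000 to 2579 and 0.53 for numbers 1 to 117.

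The share called grew with signal. Of the 316 dimmest tested probes (mean log2 signal up to 4.68) 58 were higher and 39 lower, 30.7% of them, of the 315 in the middle 74 and 77 (47.9%), and of the 316 brightest (from 8.21) 104 and 61 (52.2%). More than 2-fold calls numbered 17 and 23 among the dimmest, 62 and 57 in the middle and 77 and 32 among the brightest. The median absolute change was 0.38 among the dimmest, many of whose values lie at the floor, 0.89 in the middle and 0.80 among the brightest. Only 50 of the 316 dimmest probes were detected on all 6 arrays, so the sizes given for them are the least certain. More tested probes lay at the floor on adult lung replicates 1, 2 and 3 (144, 182 and 158) than on reprogrammed mammary replicates 1, 2 and 4 (92, 70 and 72). The floor thus hid more of the lung signal and its spread, which makes the direction of dim higher calls uncertain too. Its part in these calls was not tested beyond the higher floor reported below.

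How many probes lay on each side depended on the scaling, and brightness moved with the groups. Higher probes made up 57.1% of the calls as reported, with 236 against 177. Their share was 43.2% after quantile normalization, 41.7% with the percentile over all probes, 30.9% with the percentile over the authors' probes, 2.57% with no scaling and 87.0% after normexp. Scaled by total gene signal, the split was 193 against 198, and in the authors' table it was 131 against 168. Over the tested probes the median change was 0.15 as reported, 0.00 with the percentile over all probes, -0.12 with that over the authors' probes, -1.0 with no scaling and 0.95 after normexp. Under the 7 processings of the scanner files other than no scaling (as reported, over all probes, quantile, the authors' probes, normexp, total gene signal and a higher floor), 75 probes were called higher in each and 78 lower in each, while 82 were called in opposite directions in some pair of them.

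Those 153 probes had changes of 1.55 (median of the 75 higher) and -1.27 (median of the 78 lower). Of them 73 were more than 2-fold higher and 54 more than 2-fold lower, and 146 were detected on all 6 arrays. With no scaling, where 14 probes in all were higher and 531 lower, 12 of the 75 were called higher and all 78 lower. That the 78 stayed lower there is little check on them, since most calls lay on that side. For the 75 higher ones median log2 signal was 7.21 (adult lung), 9.11 (adult mammary), 9.13 (reprogrammed lung) and 9.31 (reprogrammed mammary), and for the 78 lower ones 9.97, 9.38, 9.22 and 8.90 in that order.

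**Figure D5:**
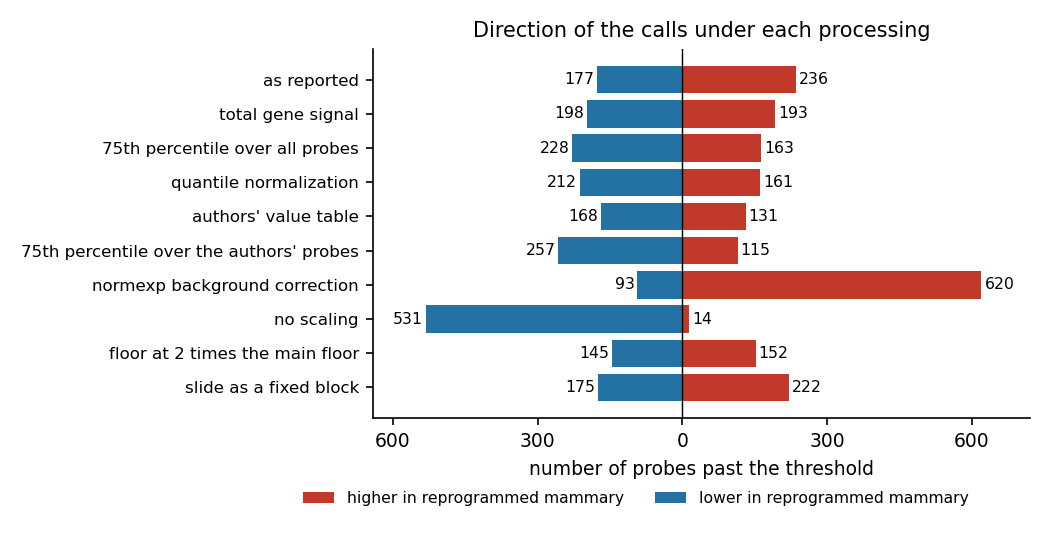
Number of probes past the threshold that were higher (right) or lower (left) in reprogrammed mammary than in adult lung cells, for the reported processing and 9 others of the same arrays. The split ran from 14 higher and 531 lower with no scaling to 620 higher and 93 lower after normexp, and stood at 236 and 177 as reported.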

How the data were processed

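Cy3-labelled miRNA was hybridised to 12 single-colour Agilent arrays. Spot intensity in the deposited scanner files is linear and was background-subtracted by Agilent Feature Extraction (10.5.1.1 per the file headers, 10.1 per the submitters' processing notes). The authors' deposited table holds log2 values for 2270 probes, with no processing steps named for it. Medians of its columns were 4.97, 4.97 and 5.00 (adult lung) and 4.98, 4.97 and 4.98 (reprogrammed mammary). Its scaling and centring stay unknown, and its direction is that of the scanner values. There were 0 columns of other samples.

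Of 15611 spots, 15075 were not controls. Outlier spots were left out (182 to 345 on these 6 arrays) and 0 were saturated. Each array was scaled to its 75th percentile among the 630 probes detected everywhere. Scaled signal was floored at 10.7 (log2 3.42), the median across the 12 arrays of their 5th percentile of detected spots, then logged and averaged per probe. Detection required a share above 0.5 of a probe's spots to be well above background. The 947 probes detected on at least 3 arrays were tested, with 1 missing value among all 12 arrays. Tests used limma 3.58.1 in R 4.3.3 on 4 group means over 12 arrays, with 8 residual and 1.47 prior degrees of freedom, Benjamini-Hochberg adjustment and a threshold of 0.05. The script was tested on simulated data. Random blocks used statmod 1.5.0, and plots used matplotlib 3.10.9 in Python 3.11.15.

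Slides were read from the array identifiers. The printed probes are the 2 highest and 2 lowest changes among called probes that did not overlap and were detected on all 6 arrays, a rule for probes without names. The comparison, the lists and the rule were chosen with earlier results of these data known. Normexp (offset 50) used the median spot signal, as no mean signal column is in the files.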

Additional observations from a re-analysis of the deposited data

How the results depend on the processing

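Of 24 other settings, the count of called probes moved by over 1.5 times in 2 (713 after normexp, which changed the background method, the offset and the signal column together, and 272 without adult lung replicate 2). Counts of higher probes moved most: 14 with no scaling, 131 in the authors' table, 115 with the percentile over the authors' probes and 620 after normexp. They also moved to 152 with the floor at 2 times its value and to 146 without adult lung replicate 2. Lower probes were 531 with no scaling and 93 after normexp, and the median over tested probes became -1.0, -0.12 and 0.95 with no scaling, the authors' probes and normexp. The cause was not tested. Leaving out 1 of the 6 arrays gave 272 to 378 calls, 146 to 223 higher and 126 to 169 lower, and a median from 0.09 to 0.19. All 4 printed probes kept direction and stayed past the threshold in these 24 settings (limma, adjusted p up to 0.0393, for UCSF034_000901 with array weights). They were chosen for their large changes on the same arrays, so this is no independent check. Replicate numbers 1 and 2 are shared by both groups and mark no stated pairing. Deviations of same-numbered arrays correlated at -0.21 and 0.27, and with the replicate block 295 probes passed, 174 higher and 121 lower. Fitted on the 6 arrays alone, 441 passed. The signal of reprogrammed mammary arrays over background limits what can be said of dim probes, of which 156 of the 947 tested were detected on none of these arrays.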

Other observations

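Probes with neighbouring serial numbers tended to change together. Of 604 pairs of consecutive numbers that were both tested, 183 had both probes called, 174 of these in the same direction and 9 in opposite ones. Changes of such neighbours correlated at r = 0.641 (rho = 0.663) across pairs, which share arrays and perhaps target miRNAs. At a distance of 2, 3, 5 and 10 numbers r was 0.512, 0.326, 0.282 and 0.262, and at 50 and 100 it was 0.07 and -0.04. Runs of consecutive numbers held 124 higher probes (of 236) and 134 lower (of 177). The longest run held 19 probes, numbers 202 to 220, all lower in reprogrammed mammary cells with changes from -2.04 to -0.72. The next held 8 lower probes, numbers 503 to 510, with a median change of -1.77, and the longest run of higher probes held 7, numbers 132 to 138, with a median of 1.41. The run of 19 and this run of 7 lie within numbers 118 to 309. Probes there have 1 spot each and are not in the authors' table. The probes of such runs may not be independent measurements, so the 413 calls need not stand for as many miRNAs. These runs were chosen after their values were seen and carry no test.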
